A study of Mus musculus with 5 samples.

Results

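The locus described here is Tcrb, the mouse T cell receptor β locus, taken as the window from 40800000 to 41560000 of chromosome 6 (mm9). Every peak that overlapped the window was kept, whatever its score. The window held 61 peaks in the SOX13hi list, 81 in SOX13lo, 62 in transgenic SOX13hi and 49 in transgenic SOX13lo, against 139 in DP. Merged across the lists, these peaks formed 188 regions, out of 157434 regions in the whole series. The V part runs from 40800000 to 41460000 and held 91 of the regions. The D-J-C and enhancer part, from 41460000 to 41510000, held 87, and the flank on its 3′ side, up to 41560000, held 10.

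Open chromatin was profiled by ATAC-seq, which maps the sites where a transposase can insert into DNA, in 5 libraries of C57BL/6 mouse thymocytes. The SOX13hi and SOX13lo libraries are γδ thymocytes of genotype TCRbeta KO.Sox13 ECFP KI/+, gated on CD24 and split by high CFP against low or no CFP. The transgenic SOX13hi and transgenic SOX13lo libraries are the same fractions from TCRbeta KO.Sox13tg+.Sox13 ECFP KI/+ animals. The DP library holds double-positive thymocytes of wild-type animals. All 4 γδ libraries thus share the TCRbeta knockout and the Sox13 reporter allele, and DP has neither, so cell type and Tcrb genotype cannot be told apart in any comparison below. The labels do not say which knockout allele was used, which promoter drives the transgene, how old the animals were or how many were pooled. Each population has 1 library, so no difference here was set against a spread between replicates and no p-value is given. Depth is known only through the length of the lists, which held 54435 peaks in SOX13hi, 67482 in SOX13lo, 63932 in transgenic SOX13hi and 33155 in transgenic SOX13lo, against 113877 in DP. The name column of the SOX13lo file reads SOX13hi, and the labels give transgenic SOX13hi and DP the same index. The libraries are given here as labelled, and the main result is also given without each of these γδ lists.

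The Tcrb locus encodes the β chain of the αβ T cell receptor. Its V, D and J segments are joined by RAG recombinase in early thymocytes, and joining a V segment to D and J usually deletes the DNA between them, except for the last V segment, which lies in the opposite orientation and is joined by inversion. The enhancer Eβ lies between the second C segment and that last V segment, and it is needed for opening and recombining the D and J segments. DP thymocytes have passed β selection and carry at least a single rearranged allele, whereas γδ T cells use no β chain. In the RefSeq gene table, which is on another assembly and was used only for the order of genes, 34 V segments precede Trbd1 and 1, Trbv31, follows Trbc2. From Trbd1 to Trbc2 lie 2 D, 14 J and 2 C segments with 0 other genes between them. No annotation on mm9 was used here, so no peak is assigned to a segment or to Eβ.

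The D-J-C and enhancer part held a long stretch that was empty in all 4 γδ lists and dense in DP. It ran from 41483291 to 41503124, over 19.8 kb, and was taken as the γδ-free stretch of the window with the most DP peaks. The γδ lists had 0 peaks in it, against 52 DP peaks that lay wholly inside. These DP peaks covered 6.80 kb, or 34.3% of the stretch, and the largest space between neighbouring DP peaks was 1258 bp. In 5 kb bins by peak centre, the 3 bins from 41485001 to 41500000 held 0 peaks in every γδ list, against 14, 15 and 13 peaks in DP.

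**Figure D1:**
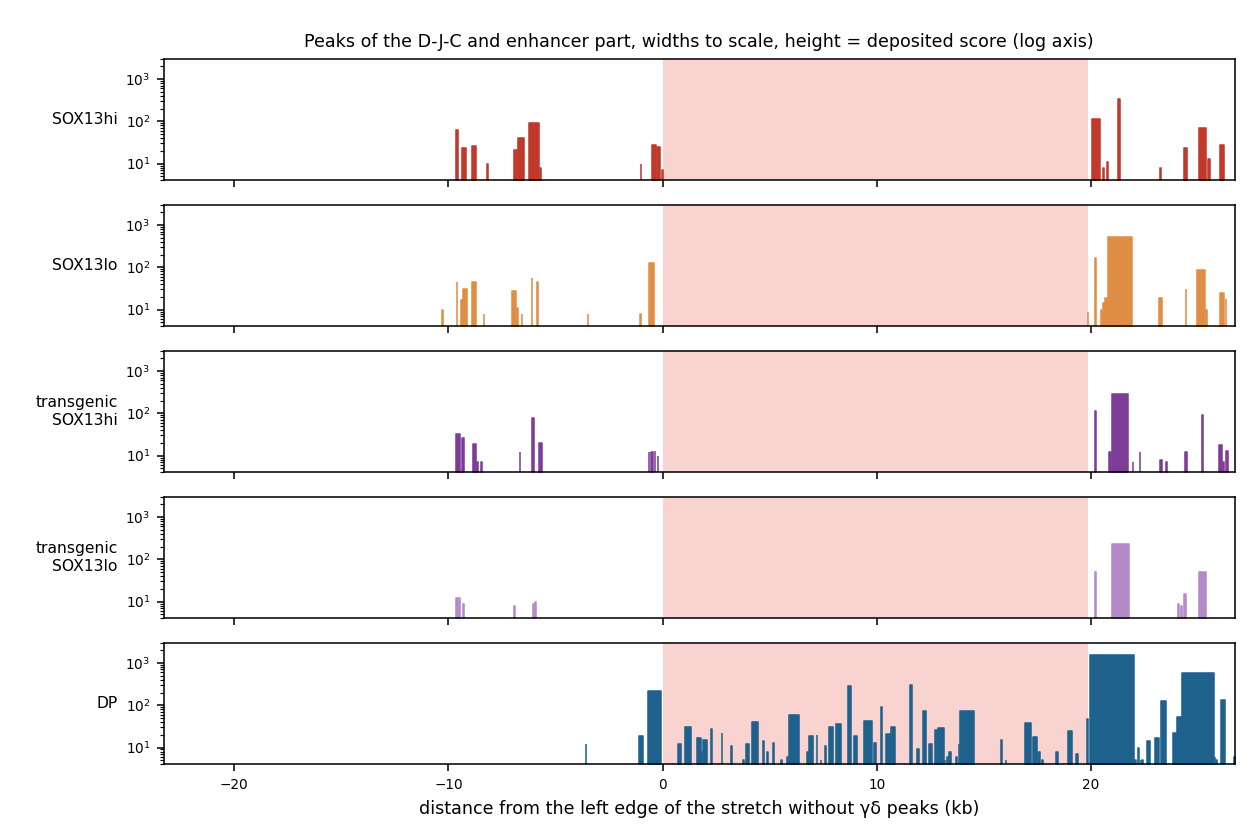
Peaks of the D-J-C and enhancer part in the 5 libraries, drawn to scale in width, with the deposited score as height on a log axis and the distance in kb from the left edge of the γδ-free stretch along the x axis. The red stretch of 19.8 kb is empty in the 4 γδ lists and holds 52 peaks in DP, while peaks of all lists stand to its right. Heights may be compared within a list only.

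Each γδ library had an empty stretch here on its own, and the right edges all lay between 41503124 and 41503460. The left edge lay at 41483291 in SOX13hi, 41482906 in SOX13lo and 41483078 in transgenic SOX13hi, but farther to the 5′ side, at 41477363, in transgenic SOX13lo. The empty stretch was 20.02 kb in SOX13hi, 20.2 kb in SOX13lo, 20.4 kb in transgenic SOX13hi and 26.1 kb in transgenic SOX13lo, the shortest list. The left edge of the common stretch was set by a SOX13hi peak of 28 bp at 41483263 to 41483290, with a score of 7, the lowest score of that list. A SOX13lo peak of 29 bp at 41503125 to 41503153, with a score of 9, set the right edge. Both edges therefore rest on weak peaks. With peaks wider than 30 bp only, the stretch ran from 41483176 to 41503314, over 20.1 kb. Without the SOX13lo library it held 53 DP peaks over 20.02 kb, and without transgenic SOX13hi 52 over 19.8 kb.

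Of the 52 DP peaks of the stretch, 2 were in the top 10% of the DP list by score, a smaller share than over the whole list. The 2 highest lay at 41494829 to 41494919, with a score of 297, and at 41491925 to 41492071, with a score of 279. They scored above 97.6% and 97.3% of DP peaks. The next 3 lay at 41493496 to 41493524 (score 89), 41497183 to 41497805 (score 74) and 41495425 to 41495575 (score 72), above 89.9%, 88.0% and 87.8% of DP peaks. These 5 peaks stood between 8.63 and 13.9 kb from the left edge. Of all DP peaks with a score of 72 or more, 4.37% (608 of 13926) were met by no γδ peak, and all 5 in the stretch were in this minority by construction. In all, 35 of the 52 DP peaks of the stretch reached the median score of the DP list, 11. Over the whole DP list, 31.5% of the peaks at or above that score met no γδ peak.

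Few γδ-free stretches of the genome held as many DP peaks. The Tcrb stretch was chosen within its window by this same count, so the shares below give its rank and are no test. Of 105112 spaces between neighbouring γδ peaks, 2 held at least 52 DP peaks (0.00190%), the Tcrb stretch and a space of 82.2 kb on chromosome 6 at 71307569 to 71389751 with 56. The Tcrb stretch was shorter than 18934 of these spaces. Among the 4716 spaces between 0.8 and 1.2 times its length, the median was 1 DP peak, the 99th percentile was 8 and the second highest was 16. Of the γδ-free spaces of at least 10 kb, 7.75% held 5 or more DP peaks. When every list was cut to its 33155 highest-scoring peaks, the length of the shortest list, the stretch of 20.1 kb held 18 DP peaks, and 1 of 54719 spaces, the Tcrb one itself, held that many (0.00183%).

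**Figure D2:**
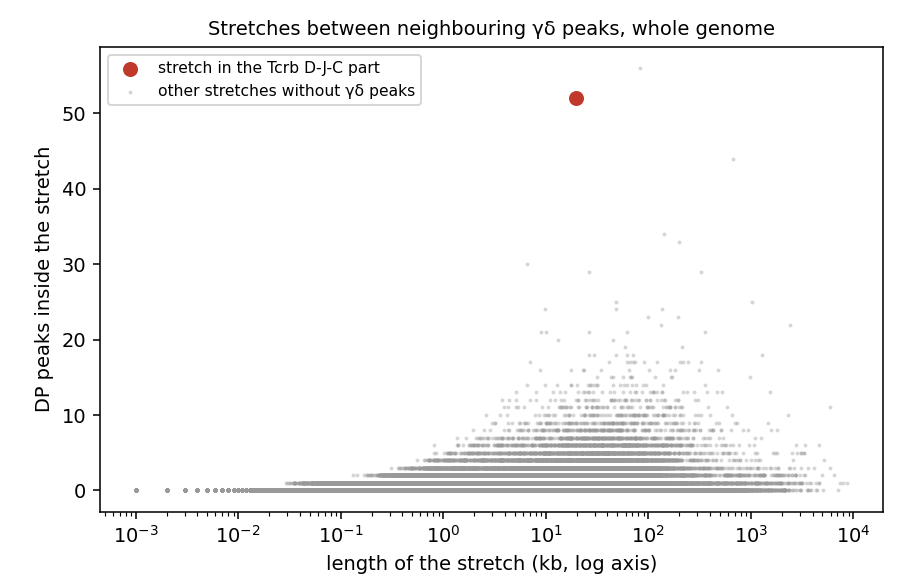
Every space between neighbouring γδ peaks of the genome, with its length in kb on a log axis (x) and the number of DP peaks inside it (y). The Tcrb stretch, in red, holds 52 DP peaks in 19.8 kb, whereas spaces of like length hold a median of 1. It was chosen within its window for its number of DP peaks, and the other spaces were not.

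DNA that is missing, DNA that is present and closed, and signal under the authors' peak threshold all leave a list empty, so these lists do not tell them apart. Which of them applies to this stretch was not tested. In the same way, fewer cells with an open site and less opening per cell cannot be told apart in a library made from many cells.

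The 3′ side of the stretch was open in every library. A merged region of 2061 bp at 41503246 to 41505306 held the highest-scoring peak of the whole window in each of the 5 lists. In SOX13hi that peak spanned 41504530 to 41504654, with a score of 336, above 99.7% of the list. SOX13lo had a peak of 1130 bp at 41504081 to 41505210, also above 99.7% of its list. Transgenic SOX13hi had a peak of 776 bp at 41504259 to 41505034, above 99.6%, and transgenic SOX13lo had 759 bp at 41504280 to 41505038, above 99.7%. DP had a peak of 2061 bp that covered the whole region and scored above 99.98% of its list. The strongest site of the locus was thus shared by knockout and wild-type libraries.

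A further region of 1487 bp at 41507540 to 41509026 was also held by all 5 lists. Its highest γδ peaks spanned 330 bp in SOX13hi, 350 bp in SOX13lo, 51 bp in transgenic SOX13hi and 304 bp in transgenic SOX13lo, and scored above 91.0%, 89.4%, 94.5% and 90.8% of their lists. The DP peak spanned the whole 1487 bp and scored above 99.5%. A DP peak at 41506554 to 41506771, above 92.6% of its list, was met in 3 of the 4 γδ lists, as was one at 41509369 to 41509549, above 93.2%. Transgenic SOX13lo lacked both. The γδ peaks that met the first of these reached only its left end, to 41506555 in SOX13hi, 41506595 in SOX13lo and 41506597 in transgenic SOX13hi. They scored above 18.3%, 58.7% and 19.0% of their lists.

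On the 5′ side of the stretch, close to its left edge, DP had a peak of 627 bp at 41482606 to 41483232 with a score of 220, above 96.2% of its list. SOX13hi had 2 peaks within it, the higher at 41482809 to 41483001 and above 74.8% of its list. SOX13lo had a peak of 236 bp at 41482670 to 41482905, above 93.7% of its list. The 4 peaks of transgenic SOX13hi there scored above at most 52.1% of its list, and transgenic SOX13lo had 0. The γδ lists other than transgenic SOX13lo thus held this site, at different ranks.

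Farther on the 5′ side the order of the lists turned, with γδ peaks where DP had none. Between the DP peaks that end at 41455617 and start at 41479702 lay 24.1 kb in which SOX13hi had 8 peaks, SOX13lo 11, transgenic SOX13hi 8 and transgenic SOX13lo 6, against 0 in DP, the longest list. They formed 11 γδ regions, all between 41472989 and 41477648. Of 113855 spaces between DP peaks in the genome, 179 held at least 11 γδ regions (0.157%). The space described was the DP-free space of the window with the most γδ regions, so this share gives its rank and is no test. The highest SOX13hi peak of the group, at 41477028 to 41477493, spanned 466 bp and scored above 94.1% of its list. The highest in transgenic SOX13hi, at 41477194 to 41477277, scored above 93.1%. In SOX13lo the highest, at 41477169 to 41477196, scored above 84.1%. In transgenic SOX13lo the highest scores, at 41473629 to 41473719 and 41473800 to 41473828, were above 45.4%. All 4 γδ lists therefore had the group, and transgenic SOX13lo held only its own weaker peaks there.

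Of the 6 merged regions of the D-J-C and enhancer part that all 4 γδ lists held, 4 were absent from DP. They lay at 41473629 to 41473842, 41473855 to 41474163, 41476256 to 41476828 and 41477028 to 41477493. Over the series, 6.84% of the regions held by all 4 γδ lists were absent from DP. In this part 6 of the 24 regions of any γδ list were in all 4 lists, against 17.0% over the series. Whether DNA deleted by rearrangement in DP cells has a part in the empty DP stretch was not tested.

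Counted over the whole D-J-C and enhancer part, the γδ lists had 21 peaks in SOX13hi, 26 in SOX13lo, 24 in transgenic SOX13hi and 12 in transgenic SOX13lo, against 71 in DP. Relative to list length these are 3.86, 3.85, 3.75 and 3.62 peaks per 10000 peaks of the list in the γδ libraries, against 6.23 in DP. The 4 γδ rates differed from each other by less than the width of their intervals. The mean γδ rate over the DP rate was 0.605, with an interval of 0.438 to 0.835 for counting error only. The interval reached 1 with lists cut to equal length (0.625, 0.389 to 1.003) and with the peaks of a list joined within 150 bp (0.697, 0.463 to 1.05). Of the 71 DP peaks, 8 (11.3%, exact interval 4.99 to 21.0) met a γδ peak, so that 63 did not, whereas over the whole DP list 55.8% met none. The stretch held 73.2% of the DP peaks of the part, all unmet by the definition of the stretch. The 8 that were met are among the other 19 (42.1%, 20.3 to 66.5), against 44.2% met over the whole DP list. Outside the stretch DP thus had 19 peaks, against all 21, 26, 24 and 12 peaks of the γδ lists. The γδ over DP ratio of 0.605 therefore rests on the stretch, which was chosen for having 0 γδ peaks and the most DP peaks.

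**Figure D3:**
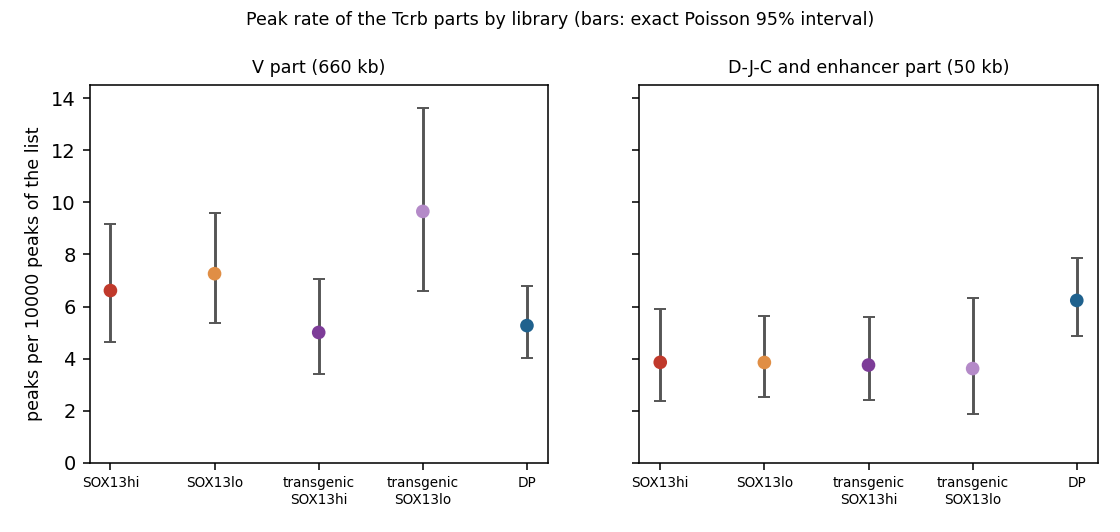
Peaks per 10000 peaks of the list in the V part and in the D-J-C and enhancer part, 1 point per library, with exact Poisson 95% intervals that cover counting error only. The γδ libraries lie between 3.62 and 3.86 in the D-J-C and enhancer part, against 6.23 in DP. That part includes the stretch chosen for its lack of γδ peaks. In the V part they lie between 5.01 and 9.65, against 5.27 in DP.

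The V part, which makes up most of the window, had no stretch like that of the D-J-C part. Its γδ-free stretch with the most DP peaks, 39.9 kb from 41087353 to 41127270, held 9. The part as a whole held 36 peaks in SOX13hi (exact Poisson interval 25.2 to 49.8), 49 in SOX13lo (36.3 to 64.8), 32 in transgenic SOX13hi (21.9 to 45.2) and 32 in transgenic SOX13lo (21.9 to 45.2), against 60 in DP (45.8 to 77.2). Per 10000 peaks of the list the γδ rates were 6.61, 7.26, 5.01 and 9.65, against 5.27 in DP. The mean γδ rate over the DP rate was 1.35, with an interval of 0.999 to 1.83. With lists cut to equal length it was 2.23 (1.19 to 4.15), on 23, 23, 20 and 32 γδ peaks against 11 DP peaks. Without transgenic SOX13lo, the shortest list, it was 1.19 (0.875 to 1.63). Of the 60 DP peaks, 32 (53.3%, 40.0 to 66.3) met a γδ peak and 28 did not, and the 44.2% met over the whole list lies within this interval.

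**Figure D4:**
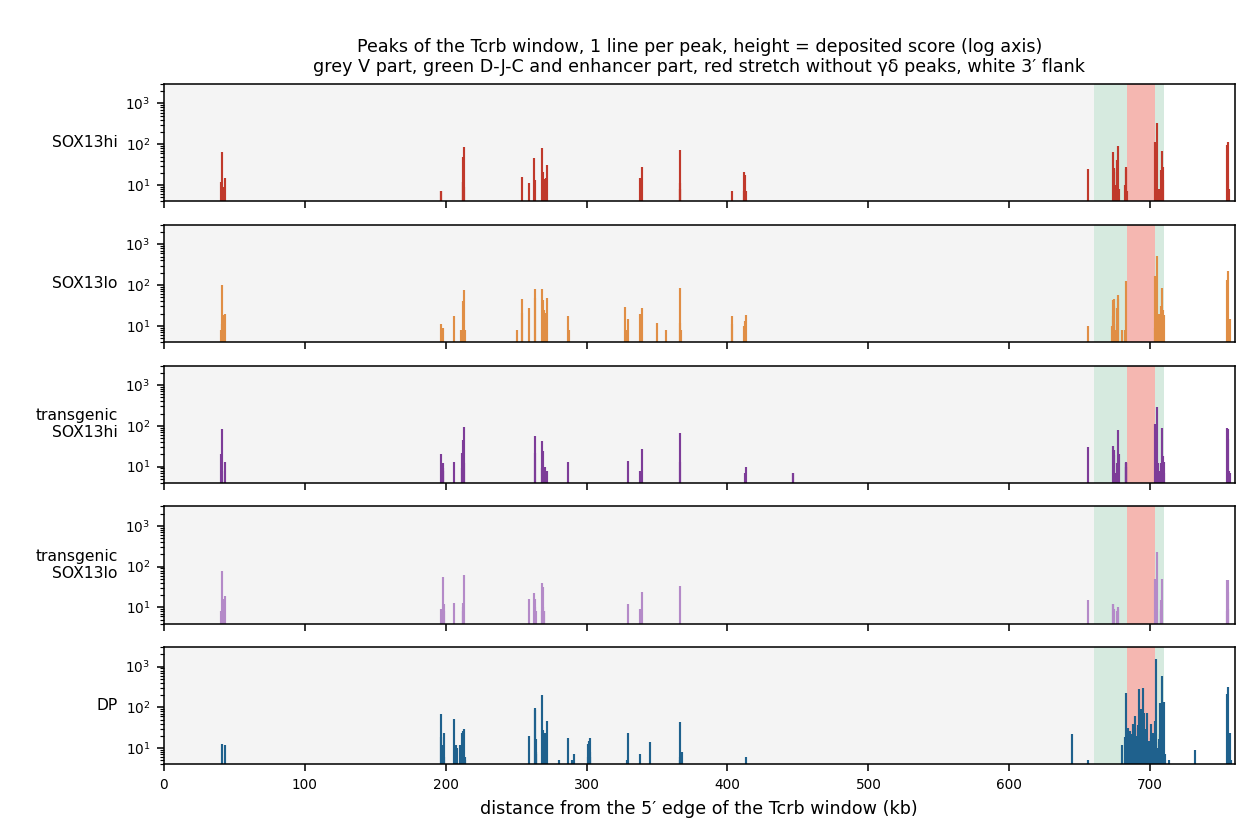
All peaks of the Tcrb window in the 5 libraries, 1 line per peak, with distance in kb from the 5′ edge of the window (x) and the deposited score on a log axis (y). Grey marks the V part, green the D-J-C and enhancer part, red the stretch with 0 γδ peaks and 52 DP peaks, and white the 3′ flank. The V part has scattered groups of peaks, and 10 of its 18 groups hold both γδ and DP peaks. No share over the genome was taken for such groups.

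The 5 highest-scoring DP peaks of the V part were all in γδ lists too. The highest, of 41 bp at 41068354 to 41068394, scored above 95.6% of DP peaks and was met in all 4 γδ lists, as was the third, at 41063033 to 41063118. The second (41063509 to 41063536), the fourth (40996715 to 40996794) and the fifth (41005743 to 41005847) were met in 3 γδ lists each. The highest γδ peak of the part was at 41012636 to 41013057 in SOX13hi, above 93.2% of its list, and at 41012844 to 41012925 in transgenic SOX13hi, above 94.9%. Near the 5′ edge, the highest peak was at 40841090 to 40841127 in SOX13lo, above 91.8% of the list, and at 40840925 to 40841319 in transgenic SOX13lo, above 95.8%. Over the whole DP list, 93.7% of the peaks that scored at least as high as the fifth were met by a γδ list, so 5 of 5 is near the background. The site with the highest score in the V part differed between the lists.

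Joined where neighbours lay within 5 kb, the V part peaks formed 18 groups, of which 10 held γδ and DP peaks, 4 held γδ peaks only and 4 held DP peaks only. Such groups were not formed over the genome, so these counts have no background share. The DP-only group at 41080116 to 41080143 was 1 peak with the lowest score of its list. So was a γδ-only group of SOX13lo, at 41156034 to 41156061. Another, at 41246370 to 41246487, was 2 transgenic SOX13hi peaks with the lowest score of that list. The other one-sided groups reached higher scores. The group at 40840599 to 40843771 had 4 peaks in SOX13hi, 7 in SOX13lo, 4 in transgenic SOX13hi and 5 in transgenic SOX13lo, against 2 in DP. Its highest peak scored above 90.3%, 91.8%, 93.9% and 95.8% of the γδ lists, against 54.4% of the DP list. The largest group, over 21.4 kb at 41050486 to 41071892, had 13, 17, 7 and 13 peaks in these γδ lists, against 18 in DP. A group at 41101062 to 41102471 had 0 peaks in the γδ lists and 7 in DP, the highest above 64.0% of the DP list. A group at 41203320 to 41203521 had 1 SOX13hi and 2 SOX13lo peaks and 0 in the other 3 lists.

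Of the 63 V part regions of any γδ list, 34 were absent from DP, against 50.2% over the series. All 4 γδ lists held 13 of the 63, against 17.0% over the series. Of these 13, 2 were absent from DP, against 6.84% over the series, at 40840599 to 40840781 and at 41139008 to 41139208. These counts are small. Long spaces of the V part were empty in all 5 lists, the longest being 198 kb from 41246488 to 41444105 and 153 kb from 40843772 to 40996677. The RefSeq table lists 11 genes other than Trb segments between Trbv30 and Trbd1, among them Try4, Try5, Try10, Prss1, Prss2 and Prss3, members of the trypsin family of pancreatic digestive proteases. That table is on another assembly, so none of these genes was placed in an empty space.

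Regions that separated the fractions, or transgenic from non-transgenic lists, were few in the window, as they were over the series. Both non-transgenic and neither transgenic list held 7 of the 188 regions (3.72%), against 2.42% over the series, and both transgenic and neither non-transgenic list held 0, against 0.696%. Of the 7, the region with the strongest DP counterpart, at 41482200 to 41482368, lay beside the left edge of the empty stretch. Both SOX13hi and neither SOX13lo list held 3 regions (1.60%, against 2.42% over the series), at 41011876 to 41012041, 41013095 to 41013151 and 41477499 to 41477648. Both SOX13lo and neither SOX13hi list held 2 (1.06%, against 0.574% over the series), at 40841829 to 40841926 and 41068952 to 41068987. These counts are too small to set against the series, and transgenic SOX13lo, the shortest list, bears on all of them.

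The 3′ flank had 4 peaks in SOX13hi, 6 in SOX13lo, 6 in transgenic SOX13hi and 5 in transgenic SOX13lo, against 8 in DP. Of its 10 regions, 2 were in all 5 lists, at 41554336 to 41554905 and at 41554960 to 41555981, against 9.45% of regions over the series. The highest peak of the flank scored above 95.7% of the SOX13hi list, 97.5% of SOX13lo, 94.4% of transgenic SOX13hi and 90.1% of transgenic SOX13lo, against 97.9% of DP. With the 2 regions of the D-J-C and enhancer part described above, 4 regions on the 3′ side of the empty stretch were held by all 5 lists.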

How the data were processed

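The authors deposited 1 peak list per library, on mm9 per the submitters' processing notes, with no header. Neither the aligner nor the peak caller, its threshold or the read filters are given in the sources used here. The score the authors deposited with each peak is a whole number of unstated meaning, and served only for ranks and filters inside its own list.

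Peaks overlapping the window by at least 1 bp were taken as deposited, and peaks met when they shared at least 1 bp. Coordinates are printed 1-based. The γδ-free stretches are the spaces between neighbouring peaks of the 4 γδ lists together, and the one of the locus with the most DP peaks was described. Peaks named are the highest-scoring of each part, those at the edges of the stretch, and regions held by set combinations of lists. Groups within 5 kb were described after the data were seen, and so were other regions named. The parts and rules were chosen with earlier results of these data known. Intervals are exact Poisson or Clopper-Pearson at 95%. The interval of a ratio of rates is approximate, from Poisson variances on the log scale. All intervals cover counting error only. The functions were tested on simulated lists. Alternatives were the upper 50% by score, lists of equal length, peaks wider than 30 bp, joining within 150 bp, other overlap rules and leaving out each γδ library. Work was done in Python 3.11.15 (scipy 1.17.1, pandas 2.3.3, numpy 2.4.6, matplotlib 3.10.9).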

Additional observations from a re-analysis of the deposited data

Results flagged for a closer look

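In the V part the difference between transgenic and non-transgenic lists ran in opposite directions in the 2 fractions. Per 10000 peaks of the list it was -1.61 in SOX13hi (5.01 in transgenic SOX13hi and 6.61 in SOX13hi) and 2.39 in SOX13lo (9.65 in transgenic SOX13lo and 7.26 in SOX13lo). With 1 library each the difference was not tested, and the Poisson intervals of each pair overlapped. In lists of equal length transgenic SOX13hi had 20 peaks and SOX13hi 23, and transgenic SOX13lo had 32 peaks and SOX13lo 23.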

How the results depend on the processing

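The empty stretch was found in the D-J-C part under every alternative run, with a length of 19.8 to 20.1 kb. Its number of DP peaks was 34 with the upper 50% of each list, 18 with lists of equal length, 32 with peaks joined within 150 bp, and 38 with peaks wider than 30 bp. The mean γδ over DP rate of the D-J-C and enhancer part stayed between 0.498 and 0.697, with the stretch included in every setting. Its interval, however, reached 1 with lists of equal length (0.389 to 1.003) and with peaks joined within 150 bp (0.463 to 1.05). The mean γδ over DP rate of the V part stayed above 1, from 1.19 without transgenic SOX13lo to 2.23 with lists of equal length. Its interval included 1 in the main run (0.999 to 1.83), the upper 50% (0.863 to 2.01) and peaks wider than 30 bp (0.839 to 1.93). It also did so without SOX13lo (0.972 to 1.86) and without transgenic SOX13lo (0.875 to 1.63). With lists of equal length, the share of DP peaks met by a γδ peak was 100% in the V part and 25.0% in the D-J-C and enhancer part. Over the whole DP list so cut it was 74.2%. The V part share rests on 11 DP peaks, and its exact interval, 71.5 to 100, includes 74.2%. The cut kept no DP score below 23 but left the transgenic SOX13lo list whole. Of the 24 DP peaks of the D-J-C and enhancer part so cut, 18 lay in the stretch and were unmet by its definition. The stretch likewise lowers the shares of that part under the other overlap rules. The share met depended on the rule. It was 23.3% and 4.23% with a reciprocal overlap of 50%, against 18.1% over the whole list. With peak centres within 200 bp it was 61.7% and 22.5%, against 57.5%. Leaving out a γδ library moved none of the 6 values past its interval or 1.5 times. The depth of the libraries is unknown, so a peak missing from a list may lie under its threshold.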
